A study of Beta vulgaris with 6 samples.

Results

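On a custom microarray, 45 probes out of 53752 non-control probes gave on-off calls that followed the bolting class of 6 sugar beet genotypes. A probe was called on in a class if it had a spot on all 4 arrays of that class that was well above background, positive and significant, uniform, not a population outlier and not saturated by the flags of the scanner software. It was called off in the other class if no spot was well above background on any of the 4 arrays. By this rule, 32 probes were on in the bolting-resistant and off in the bolting-sensitive genotypes, which is 0.0595% of all probes, and 13 were on in the sensitive and off in the resistant genotypes (0.0242%). Among the 21670 probes that were on in all resistant arrays and the 21357 that were on in all sensitive arrays, these were 0.148% and 0.0609%, respectively. The flags themselves chose the probes, so their difference between the classes is given as a description and without a test.

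Total RNA came from the shoot apical meristem of biennial sugar beet (Beta vulgaris altissima), with 1 meristem per genotype. All plants had grown for 8 weeks at 22 °C with 16 h of light per day and had then spent 9 weeks at 4 °C, so no class was without cold. The resistant class, with a low capacity to bolt, was made up of genotypes 1, 4 and 7, and the sensitive class, with a high capacity, of genotypes 2, 3 and 5. RNA was labelled with Cy3 and read on 8 arrays of 1 slide scanned on 1 day, with 2 arrays each for genotypes 3 and 7. The replicates are thus 3 genotypes per class, which differ by everything that separates their genetic backgrounds, and the tissue label could not be set against meristem markers because no listed probe is annotated as one.

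Bolting is the elongation of the flowering stem, which beet undergoes after a long cold period (vernalization) followed by long days. The shoot apical meristem is the tissue where the switch from vegetative growth to bolting takes place. An array flag of this kind records whether the signal of a spot clears its local background by a set margin, so an off call is not a measure of absence. With RNA from a whole meristem, fewer cells of a type and less RNA per cell cannot be told apart. Each call also rests on 1 spot per array and compares different genotypes. A sequence difference under the probe and a lower transcript level therefore cannot be told apart either.

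An off call was a statement about a limit, and this limit differed between arrays. The lowest intensity of a spot that was well above background lay between 17.3 and 22.1 on the resistant arrays and between 20.5 and 30.2 on the sensitive arrays, and on each array it was 4.31 to 4.43 times the median of the 308 negative control spots. Relative to the 75th percentile of each array, the scale used for all log2 levels here, the limit lay between −4.39 and −3.85 on resistant and between −4.08 and −3.81 on sensitive arrays. A fold is therefore given as a lower limit: the mean log2 level of the on genotypes minus the mean over the off genotypes of, per array, the higher of the recorded signal and the limit. Each fold given as at least a value is a minimum under this limit only. The highest signal not well above background was 22.5 to 41.0, depending on the array. With it as the limit, 12 of the 32 probes and 0 of the 13 fell below 0 on the log2 scale. The recorded difference, which uses the off signals as the scanner software wrote them, is given beside it.

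**Figure D1:**
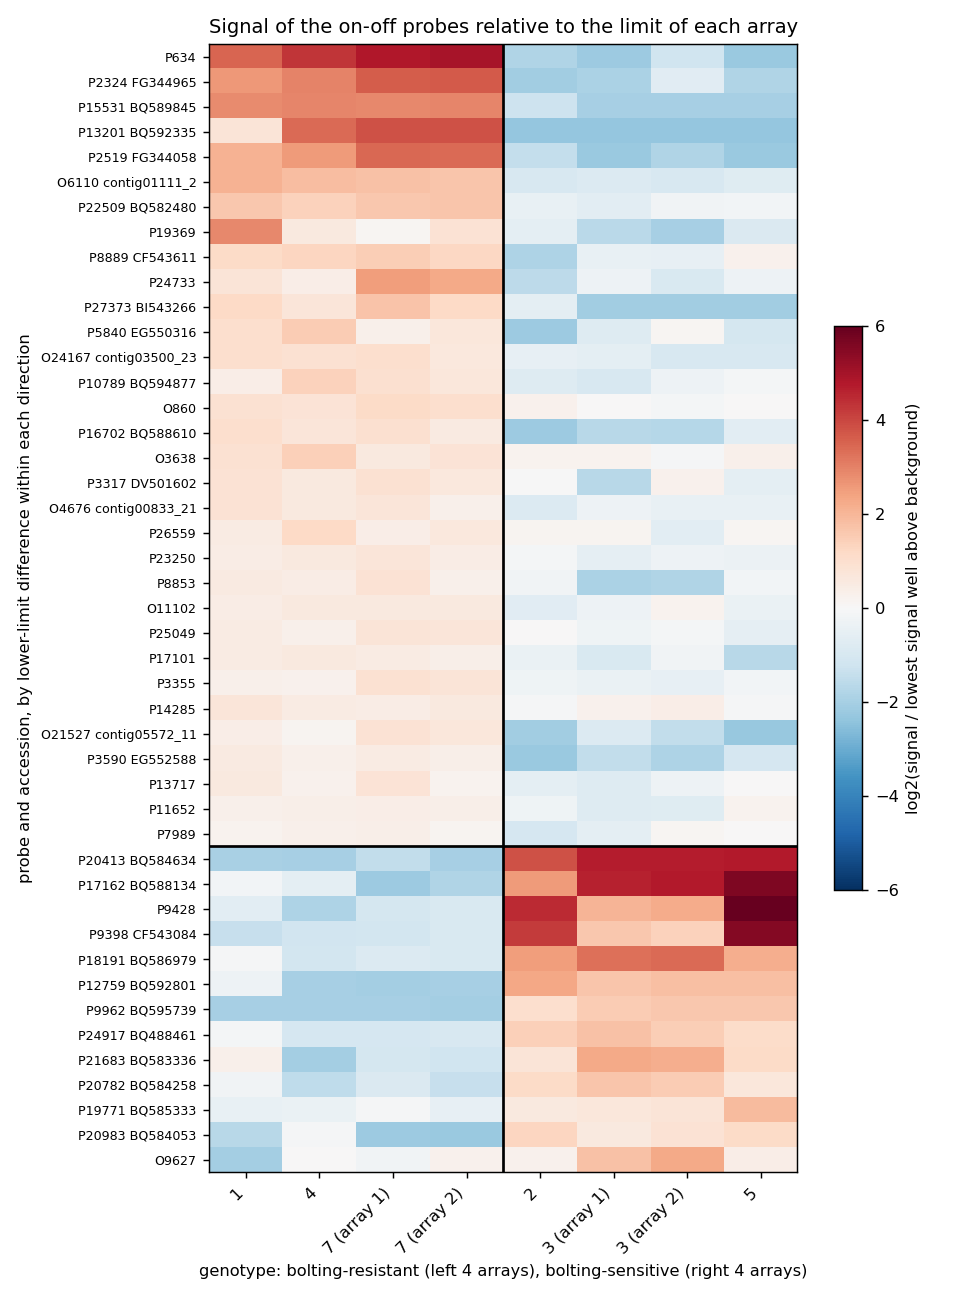
Log2 ratio of the signal to the lowest signal well above background on the same array for the 45 on-off probes (rows, ordered by lower-limit difference within each direction) on 8 arrays (columns). The top 5 rows of the upper block and the top rows of the lower block hold the deepest colours, P13201 in genotype 1 apart, while most other probes on in resistant genotypes are pale on the resistant arrays, close to the limit.

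By the flags of the scanner software the first direction held the larger number of probes, but with well above background recomputed from the local background pixel SD the numbers were 12 and 28, so which direction is the larger depends on the flag. The lower-limit difference of the 32 probes on in resistant genotypes had a median of 0.58 on the log2 scale, or at least 1.495-fold, and ranged from −0.002 to 4.00. For the 13 probes on in sensitive genotypes the median was 1.62, or at least 3.07-fold, and the range was 1.08 to 4.66. All 13 of the latter, but only 8 of the former, had a lower limit of 2-fold or more, and 23 of the 32 lay between 1-fold and 2-fold. With normexp, a model-based background correction, 5 of the 32 and 5 of the 13 had a lower limit of 2-fold or more. The medians were 0.36 for the 32 and 0.63 for the 13. The contrast was thus smaller under that setting but kept its direction. However, normexp was run with an offset of 50 added to every signal, above the limits of 17.3 to 30.2 on the 8 arrays. Such an offset shrinks the folds of faint probes, and its share in the change was not tested. P7989, the lowest, had a limit under 1-fold, and no fold is given for it.

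Recorded differences were larger, with a median of 1.29 for the probes on in resistant and 3.56 for those on in sensitive genotypes. Of the 32 probes, 19 had a recorded difference over 2-fold, as did 13 of the 13, where 3.32% and 3.7% of the 22314 probes on in at least 1 class did so in the same directions. The lowest on genotype was above the highest off genotype for 27 of the 32 and for 13 of the 13, where 3.7% and 3.6% of those 22314 probes had classes that did not overlap. These counts used the same contrast as the flags, and nothing is read from them about the probes.

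**Figure D2:**
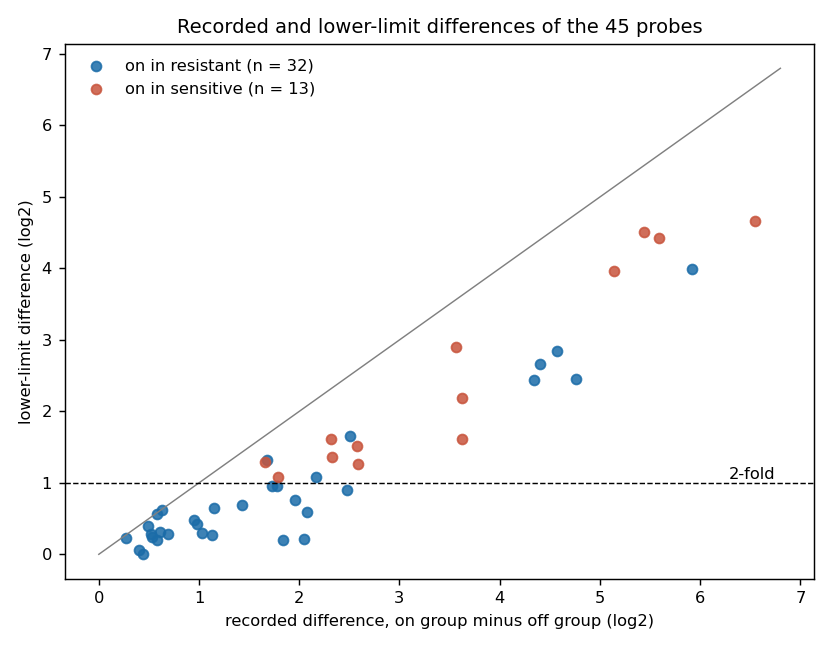
Lower-limit difference against recorded difference (log2, on group minus off group) for each of the 45 probes, with a line of equality and a dashed line at 2-fold. All 13 probes on in sensitive genotypes lie above the dashed line, and 24 of the 32 probes on in resistant genotypes lie below it.

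An off call did not mean that no signal was recorded for most of the 45. Of the 32 probes on in resistant genotypes, 22 were still positive and significant on all 4 sensitive arrays, and 21 exceeded the 95th percentile of the negative control spots on all 4. Of the 13 probes on in sensitive genotypes, 6 were positive and significant on all 4 resistant arrays, and 6 exceeded that percentile on all 4. Only P13201 in the first direction and P9962 in the second lay at or below the negative control percentile on all 4 off arrays, and these were also the only 2 probes with no positive and significant signal there. The same shares among all probes off in a class were not counted, so nothing particular to the 45 is read from these numbers. Whether such faint signal came from the named transcripts was not tested.

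The highest and most separate signals among the probes on in resistant genotypes came from 5 probes. P634, which carries no accession in the study's list, had intensities of 252 in genotype 1, 389.7 in genotype 4, and 487 and 567 on the 2 arrays of genotype 7. On the sensitive arrays it read 7.54 in genotype 2, 6.59 and 12.4 in genotype 3, and 4.40 in genotype 5. Every resistant array was thus more than an order of magnitude above every sensitive one. Its mean level was 0.07 ± 0.69 (SD, n = 3 genotypes), and the difference was at least 16.0-fold.

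P2324 (FG344965), listed as an uncharacterized protein, read 133, 156, 216 and 234 on the arrays of genotypes 1, 4, 7 and 7, against 6.25 in genotype 2, 8.11 and 17.7 in genotype 3, and 5.85 in genotype 5. The duplicate arrays of genotype 3 stood apart by more than 2-fold in signal for this probe, both below the limit. Its level was −1.08 ± 0.50 (SD, n = 3) and its difference at least 7.17-fold. P15531 (BQ589845), with a gene model but no Arabidopsis hit, was the most even of these 5, at 159, 152, 128 and 141 on the resistant arrays and 11.5, 7.48, 7.21 and 5.14 on those of genotypes 2, 3, 3 and 5. Its level was −1.26 ± 0.29 (SD, n = 3), and the difference was at least 6.35-fold.

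The remaining 2 of the 5 have an annotated domain or family. P13201 (BQ592335) is listed as a wall-associated receptor kinase-like protein, a class of kinases whose outer part contacts the pectin of the cell wall. It read 38.0 in genotype 1, 213 in genotype 4, and 248 and 257 in genotype 7, against 4.06 to 6.03 on the sensitive arrays. Genotype 1 was thus far closer to the limit than the other resistant genotypes, an 8.14-fold range within the class. The level was −1.48 ± 1.71 (SD, n = 3), with a difference of at least 5.45-fold, and the lower-limit log2 difference of 2.45 became 3.44 without genotype 1.

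P2519 (FG344058) encodes a protein with an ELMO/CED-12 domain, which in animals acts in the uptake of dying cells. Its intensities were 92.9, 116, 187 and 191 in genotypes 1, 4, 7 and 7, against 9.80, 6.46, 8.28 and 4.35 in genotypes 2, 3, 3 and 5. As in P634 and P2324, genotype 7 was highest on both of its arrays, while no sensitive array reached its limit. The level was −1.48 ± 0.62 (SD, n = 3), and the difference at least 5.44-fold.

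**Figure D3:**
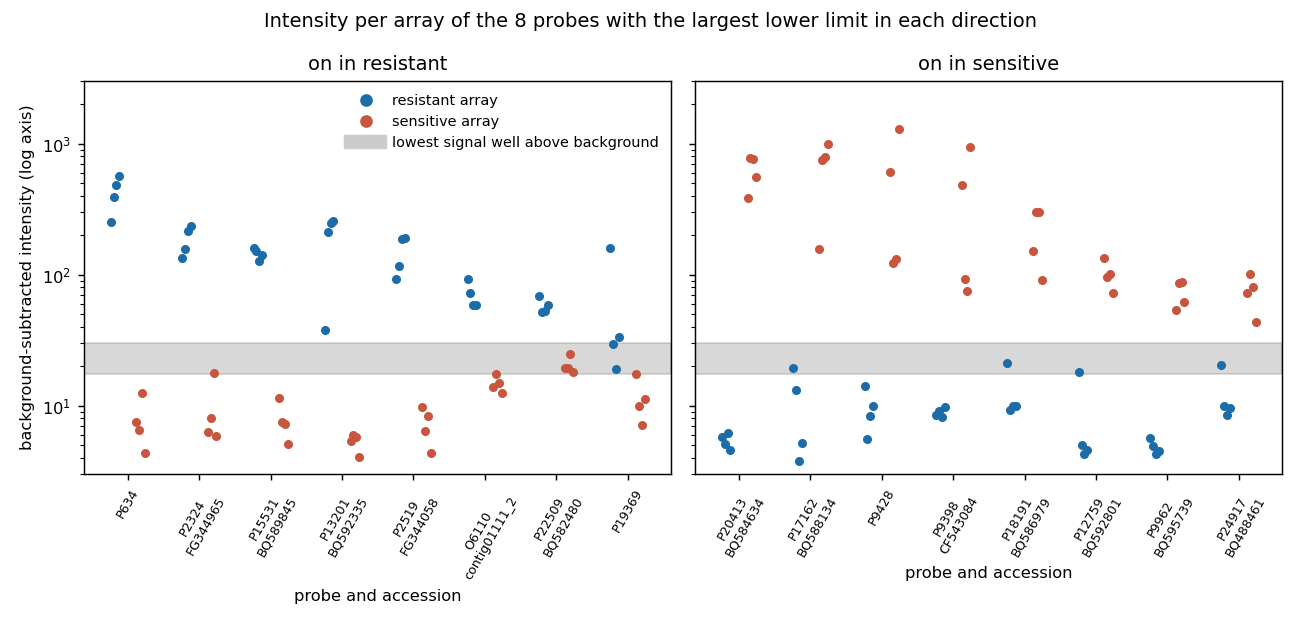
Background-subtracted intensity (log axis) on each of the 4 resistant and 4 sensitive arrays for the 8 probes with the largest lower limit in each direction; the grey band spans the limits of the 8 arrays, 17.3 to 30.2. All 4 sensitive signals of P22509, 18.1 to 24.7, lie inside the band, and the resistant signals of P19369 lie inside and above it.

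Another 3 probes on in resistant genotypes had a lower limit of 2-fold or more. O6110, from a genomic contig with no hit, read 92.5, 73.0, 59.1 and 58.7 in genotypes 1, 4, 7 and 7 and between 12.5 and 17.3 on the sensitive arrays, with a difference of at least 3.16-fold. P22509 (BQ582480), listed as an R3H protein that binds single-stranded nucleic acids, read 51.6 to 68.2 on the resistant and 18.1 to 24.7 on the sensitive arrays. Its spread among on genotypes was small, with an SD of 0.12, and its difference was at least 2.49-fold. P19369, with no accession, rested on genotype 1, where it read 161 against 29.6 in genotype 4 and 19.1 and 33.3 in genotype 7. Its lower limit of 1.08 on the log2 scale became 0.35 without that genotype.

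The annotated probes below 2-fold comprised enzymes, a transporter and a binding protein. P8889 (CF543611), an amino acid permease that carries amino acids across membranes, read 43.8 to 49.6 on the resistant arrays and 7.44, 22.1, 20.7 and 24.5 in genotypes 2, 3, 3 and 5, a difference of at least 1.95-fold. P27373 (BI543266), a putative lupeol synthase of the family that cyclizes oxidosqualene to triterpenes, read 51.0, 33.2, 56.5 and 42.1 in genotypes 1, 4, 7 and 7. Genotype 2, at 18.1, was the highest of its sensitive arrays, with the others between 4.83 and 7.17, and its difference was at least 1.87-fold.

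P5840 (EG550316), listed as binding calcium and copper ions, was not separated on single arrays. It read 31.6 on the second array of genotype 3, where it was not well above background, and 21.6 on the first array of genotype 7, where it was on. Its difference was at least 1.69-fold, with a log2 SD of 0.77 among the resistant genotypes. P16702 (BQ588610), whose gene model the list describes as a sulfotransferase, read 26.4 to 44.5 against 5.96 to 13.4, at least 1.51-fold. O4676, from a genomic contig with similarity to aspartate kinase, an enzyme at the start of the synthesis of several amino acids from aspartate, read 23.1 to 40.2 against 14.9 to 24.3, at least 1.35-fold.

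Apart from O6110, 5 listed probes of this direction had neither a gene model nor an Arabidopsis hit. O24167, P10789 (BQ594877), P3317 (DV501602), O21527 and P3590 (EG552588) had lower-limit differences of 0.69, 0.65, 0.48, 0.21 and 0.21 on the log2 scale. P3317 showed how thin the margin was. For it the 2 arrays of genotype 3 read 9.60 and 33.9 from the same sample. This was a log2 difference of 1.86 after scaling and the largest between duplicates of the off class. The higher of these 2 signals exceeded the lowest of the resistant signals of P3317 after scaling. The other 14 probes under 2-fold had no accession. P24733 rested on genotype 7, where it read 98.9 and 90.0 against 37.6 and 26.1 in genotypes 1 and 4, and its lower limit of 0.96 on the log2 scale became 0.46 without that genotype. For the other 13 the resistant signals were between 20.8 and 53.5. The lowest 3 were P13717 at 0.20, P11652 at 0.05 and P7989 at −0.002, where the recorded intensities were 20.8 to 25.3 on the resistant and 13.2 to 30.9 on the sensitive arrays.

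Signals overlapped between classes for part of this direction. For 9 of the 32 probes, at least 1 sensitive array had a scaled signal at or above the lowest resistant array, and for 5 this held between the genotype means. At least 1 off signal exceeded the highest limit of the resistant arrays for 9 of the 32. With on redefined as a signal above the highest of the 8 array limits, 15 of the 32 and 13 of the 13 remained, a setting chosen after the data were seen. The error that the scanner software assigned to the on signals had a median of 17.1% over the 32 probes and 13.1% over the 13.

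Among the probes on in sensitive genotypes, 4 reached lower limits near or above 16-fold. P20413 (BQ584634) is listed as a putative DEAD/DEAH box helicase, a class that unwinds RNA or DNA. It read 384 in genotype 2, 781 and 765 in genotype 3 and 553 in genotype 5, against 5.78, 5.08, 6.16 and 4.61 in genotypes 1, 4, 7 and 7. Every sensitive array was bright, and every resistant array was at the level of the negative controls or just above it. Its level was 0.51 ± 0.49 (SD, n = 3), and its difference of at least 25.4-fold was the largest of the 45 in this setting, though P17162 was ahead with normexp and without genotype 2, and P9428 without genotype 3.

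P17162 (BQ588134) had no Arabidopsis hit, and its gene model is described in the list as an antiviral, ribosome-inactivating protein, an enzyme type that removes a base from ribosomal RNA. It read 156 in genotype 2, 750.0 and 787 in genotype 3 and 994 in genotype 5, against 19.5, 13.3, 3.81 and 5.21 in genotypes 1, 4, 7 and 7. Both classes were graded, with genotype 2 lowest among the sensitive and genotype 1 highest among the resistant genotypes. The level was 0.36 ± 1.499 (SD, n = 3), and the difference at least 22.8-fold. Its lower limit of 4.51 on the log2 scale became 5.36 without genotype 2 and 3.93 without genotype 5.

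P9428, without an accession, and P9398 (CF543084), a GTP-binding protein, had the widest spread within a class. P9428 read 603 in genotype 2, 124 and 133 in genotype 3 and 1297 in genotype 5, against 5.55 to 14.1 on the resistant arrays. P9398 read 484, 91.9, 74.7 and 944 on the same sensitive arrays, against 8.14 to 9.80 on the resistant arrays. Both were highest in genotype 5, next in genotype 2 and lowest in genotype 3, with ranges of 12.3-fold and 13.8-fold within the class and SDs of 1.83 and 1.94 (n = 3). Their differences were at least 21.5-fold and 15.5-fold, and both rested on single genotypes for their size. On the log2 scale the lower limit of P9428, 4.43, became 5.42 without genotype 3 and 3.61 without genotype 5, and that of P9398, 3.96, became 5.03 and 3.14.

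P18191 (BQ586979), a phytepsin, which is an aspartic protease of the plant vacuole, was highest in genotype 3. Its intensities were 151, 301, 301 and 91.5 in genotypes 2, 3, 3 and 5, against 21.3 in genotype 1 and 9.32 to 9.89 on the other resistant arrays. The level was −1.26 ± 0.73 (SD, n = 3) and the difference at least 7.44-fold. P12759 (BQ592801), with a gene model and no Arabidopsis hit, read 72.1 to 134 against 18.1 in genotype 1 and 4.27 to 4.98 elsewhere in the resistant class, at least 4.56-fold. P9962 (BQ595739), with no hit, read 53.7 to 87.9 against 4.30 to 5.63, at or below the 95th percentile of the negative controls of each array, at least 3.07-fold.

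The other 6 probes of this direction had lower limits between 2.11-fold and 3.05-fold. P24917 (BQ488461) is the alternative oxidase AOX1A, a mitochondrial oxidase that bypasses part of the respiratory chain. It read 72.7, 100.5, 80.0 and 43.7 in genotypes 2, 3, 3 and 5, against 20.3 in genotype 1 and 8.48 to 9.94 in genotypes 4 and 7, a difference of at least 3.05-fold. P21683 (BQ583336), a secreted class of plant peroxidase, read 145 and 132 in genotype 3, where genotypes 2 and 5 read 45.9 and 46.0. Genotype 1 read 27.4, above the lowest signal that was flagged well above background on that array although the spot itself was not, against 4.86 to 8.40 in genotypes 4 and 7, at least 2.86-fold.

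P20782 (BQ584258), a thaumatin-like protein of the pathogenesis-related family, read 59.9, 94.6, 83.4 and 32.5 in genotypes 2, 3, 3 and 5 against 6.85 to 19.1, at least 2.58-fold. P20983 (BQ584053), a caleosin, which binds calcium at the surface of oil bodies, read 44.7 to 65.3 on the sensitive arrays. In the resistant class it read 19.0 in genotype 4 and 3.82 to 6.86 elsewhere, at least 2.41-fold. P19771 (BQ585333), the tetraspanin TET5, a membrane protein, was highest in genotype 5 at 76.2, with 40.0 in genotype 2 and 48.5 and 49.0 in genotype 3. Its 4 resistant signals were all alike at 13.2 to 16.6, and its difference was at least 2.45-fold. O9627, the lowest of this direction and without an accession, read 103 and 140.5 in genotype 3 but 32.3 and 27.2 in genotypes 2 and 5, against 5.42 to 21.9 in the resistant class.

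Of the 13, 2 rested on 1 genotype for their place above 2-fold. The lower limit of O9627 was 1.08 on the log2 scale and became 0.46 without genotype 3, and that of P19771 was 1.29 and became 0.95 without genotype 5. In both directions together, 10 probes kept a lower limit of 2-fold or more under every alternative scaling, limit and left-out genotype tried. They were P634, P2324, P15531, P13201 and P2519 on in resistant and P20413, P17162, P9428, P9398 and P18191 on in sensitive genotypes. Because normexp with its offset of 50 was among these settings, bright probes were favoured in this count.

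Within the off class, genotype 1 gave the highest of the resistant intensities for 8 of the 13 probes on in sensitive genotypes, P17162, P18191 and P21683 among them, and the highest scaled level for 7. The array of genotype 1 also had the highest negative control median of the resistant arrays, 5.13 against 3.94 to 4.59. The same share among all probes off in the resistant class was not counted, so nothing is read from it about the 13. The genotype that was highest within the on class depended on the scale. For the 32 probes on in resistant genotypes, genotype 4 was highest for 24 on the scale relative to the 75th percentile, genotype 1 for 19 on unscaled intensity and genotype 7 for 15 by distance to the limit of its own array. The array of genotype 4 had the lowest 75th percentile, at 288 against up to 418 on the other resistant arrays. For the 13 probes on in sensitive genotypes, genotype 3 was highest for 7 on the first and second of these scales, and genotype 5 for 6 on the third.

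The spread among the on genotypes is described here although the rule, which asked every on array to clear its limit, bore on it. The median SD was 0.30 for the 32 probes on in resistant genotypes, against 0.35 for the 8603 probes on in all resistant arrays with a mean level in the same range. For the 13 probes on in sensitive genotypes it was 0.60, against 0.30 for 9063 such probes. The range ran from the lowest to the highest member, −3.90 to 0.07 and −3.02 to 0.51 in the 2 directions. The median member levels were −3.31 and −2.53, so the probes compared were not matched in level. The duplicate arrays of 1 on genotype differed by a median of 0.17 on the log2 scale for the first direction (genotype 7) and 0.13 for the second (genotype 3). These are differences within 1 sample, and which step of the preparation was repeated is not known here. Even the on signals were faint: the median level lay at the 1.74th percentile of all probes on in resistant arrays for the first direction and at the 6.27th percentile of those on in sensitive arrays for the second.

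The state of a genotype that took no part in the choice was described by leaving out each genotype in turn and applying the rule to the other 5. A chosen probe that also has its class state in the genotype left out is by definition 1 of the 32 or the 13. Those numbers were thus fixed in advance, and only the number chosen varied. The shares are therefore no independent evidence for the rule. Of the 85, 100 and 78 probes chosen as on in resistant without genotypes 1, 4 and 7, 32 in each case were on in the genotype left out, or 37.6%, 32.0% and 41.0%. Of the 35, 38 and 29 probes chosen as on in sensitive without genotypes 2, 3 and 5, 13 in each case were on in it, or 37.1%, 34.2% and 44.8%. Over all probes the share on was between 41.7% and 44.7% in these 6 genotypes, so no share exceeded that of all probes except 44.8% against 44.7% for genotype 5.

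Leaving out a genotype of the off class gave like results, again with the 32 and the 13 fixed by the rule. Probes chosen as on in resistant without genotypes 2, 3 and 5 numbered 60, 70 and 102, and 53.3%, 45.7% and 31.4% of these were off in the genotype left out. Probes chosen as on in sensitive without genotypes 1, 4 and 7 numbered 53, 33 and 37, of which 24.5%, 39.4% and 35.1% were off in it. Between 54.1% and 57.3% of all probes were off in these genotypes, and every share was below that. Genotypes 5 and 1 stood apart: 68.6% of the probes chosen as on in resistant without genotype 5 were on in it, and 75.5% of those chosen as on in sensitive without genotype 1 were on in that genotype. By intensity, the array of genotype 5 had the lowest limit of the sensitive arrays, 20.5. That of genotype 1 had the highest of the resistant arrays, 22.1. Whether the limits bore on these shares was not tested. The comparison with all probes takes in probes of every level, while those chosen lay near the limit.

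**Figure D4:**
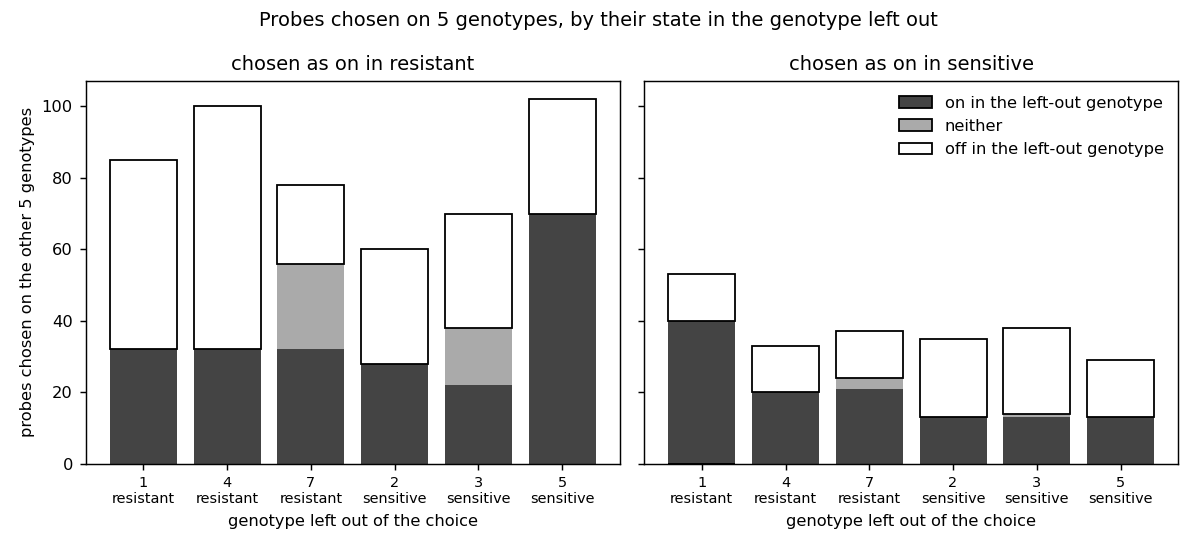
Number of probes chosen by the rule on 5 genotypes (bar height), divided by their state in the genotype left out (dark, on; grey, on 1 of 2 arrays or otherwise neither; white, off). The dark part is 32 of 85, 100 and 78 when a resistant genotype was left out of the choice of probes on in resistant. It is 13 of 35, 38 and 29 when a sensitive genotype was left out of the choice of probes on in sensitive. The 32 and the 13 are the probes of the full rule, so these parts were fixed in advance.

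The rule could also be applied with 1 array for each of genotypes 3 and 7. With their first arrays, 63 probes were on in resistant and 16 on in sensitive genotypes, and 32 (50.8%) and 13 (81.3%) of these kept their place once the second arrays were added. With the second arrays first, the numbers were 45 and 16, and 71.1% and 81.3% kept it. Adding the second arrays of the same samples to the first thus removed 31 of 63 and 3 of 16.

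Many probes stood just outside the rule. There were 114 probes on in all resistant arrays and well above background on exactly 1 sensitive array. For 70 of these that array was of genotype 5, which had the lowest limit of the sensitive arrays. On the other side, 63 probes were on in all sensitive arrays and well above background on 1 resistant array, and for 40 of these it was that of genotype 1. A further 145 probes were on in 3 of the 4 resistant arrays and off in the sensitive class, and 39 were on in 3 of the 4 sensitive arrays and off in the resistant class. Nearest outside by signal was O12948, which read 30.9 on 1 array of genotype 3 with a limit of 30.2. P15372 (BQ590015) read 33.1 on that array but 73.9 to 1227 on the resistant arrays, with a lower-limit difference of 3.32, larger than all but P634 among the 32. Just inside were P19369 and O21527, whose lowest on signals were 19.1 and 22.3.

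Gene identity and probe origin were compared across the directions. The study's list pairs 27 of the 45 probes with an accession, 16 of the 32 and 11 of the 13, and 19 of the 27 with a gene model and 16 with an Arabidopsis gene. The list was drawn up by the study from these same arrays, so its coverage is not independent of the signals. O probes, which carry contig names from sequenced genomic DNA where listed, made up 7 of the 32 (21.9%) and 1 of the 13 (7.69%), against 5.14% and 4.84% of the probes on in all resistant and all sensitive arrays. They were 45.7% of all probes but 5.48% of those on in at least 1 class. These shares take in probes of every level and were not matched to the faint signals of the on-off probes. Each of the 45 had 1 spot per array.

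The list's 169 probes, of which 27 (16.0%) were on-off probes, 16 on in resistant and 11 on in sensitive genotypes, were also sorted by words in their descriptions. Of 9 probes for receptors and signalling, 3 were on in resistant and 0 on in sensitive genotypes, namely P13201, P2519 and O4676, the last being the metabolic enzyme aspartate kinase. Of 12 probes for defence and stress, 0 were on in resistant and 2 on in sensitive genotypes (P21683 and P20782). Specialized metabolism contributed 1 of 14 (P27373), transport 1 of 5 (P8889) and proteolysis 1 of 8 (P18191). RNA splicing and binding contributed 1 of 8, P20413, placed there by the word helicase alone. P22509, on in resistant genotypes and listed as binding single-stranded nucleic acids, matched no list. The 3 flowering MADS-box probes and the 2 for transposable elements contributed 0, and 11 of the 44 probes with no Arabidopsis hit were among the 45. No theme was tested.

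For 5 gene models with an on-off probe the list held further probes, 9 in all, and these 9 were well above background on all 8 arrays. They were higher in the same class as the on-off probe in 9 of 9, which cannot count as independent evidence because the study listed them for their difference between these samples. For the wall-associated receptor kinase model of P13201, the further probe P22172 (BQ582832) had levels of −0.63, 2.06 and 2.09 in genotypes 1, 4 and 7 and −3.63, −3.60 and −3.83 in genotypes 2, 3 and 5. Genotype 1 was the lowest resistant genotype for both probes. The recorded difference was 4.86 on the log2 scale for P22172 and 4.77 for P13201, whose lower limit was 2.45.

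P12548 (BQ593022) shares a gene model with the GTP-binding protein probe P9398 and likewise had genotype 5 highest (−0.28), then genotype 2 (−1.12) and genotype 3 (−1.53), with resistant genotypes between −2.45 and −2.32. Its recorded difference was −1.40 on the log2 scale (resistant minus sensitive). That of P9398 was −5.14, and P9398 was lower in the resistant class by at least 3.96. For the tetraspanin model, the recorded difference was −1.498 for P19474 (BQ585647) and −1.66 for P19771. The latter was lower in the resistant class by at least 1.29, and genotype 5 was highest in both probes. For the sulfotransferase model, P22988 (BQ490394) and P3318 (DV501601) had recorded differences of 1.69 and 1.20. That of P16702 was 2.08, with a lower limit of 0.59.

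The triterpene synthase model of P27373 had 4 further probes, P28322, P24260, P963 and P1077, with recorded differences of 1.90, 1.60, 5.17 and 1.54. That of P27373 was 2.48, with a lower limit of 0.90. In 1 of the 4 further probes, P963 (FG344264), genotype 2 stood at 3.09 while genotypes 3 and 5 were at −1.76 and −2.64. Genotype 2 also had the highest recorded sensitive signal for P27373, with all of them below the limit. The 9 further probes thus gave signals well above background in both classes for the 5 gene models. Related genes of a family can hybridize to 1 probe, and whether probes listed under 1 gene model detected the same transcript was not tested.

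**Figure D5:**
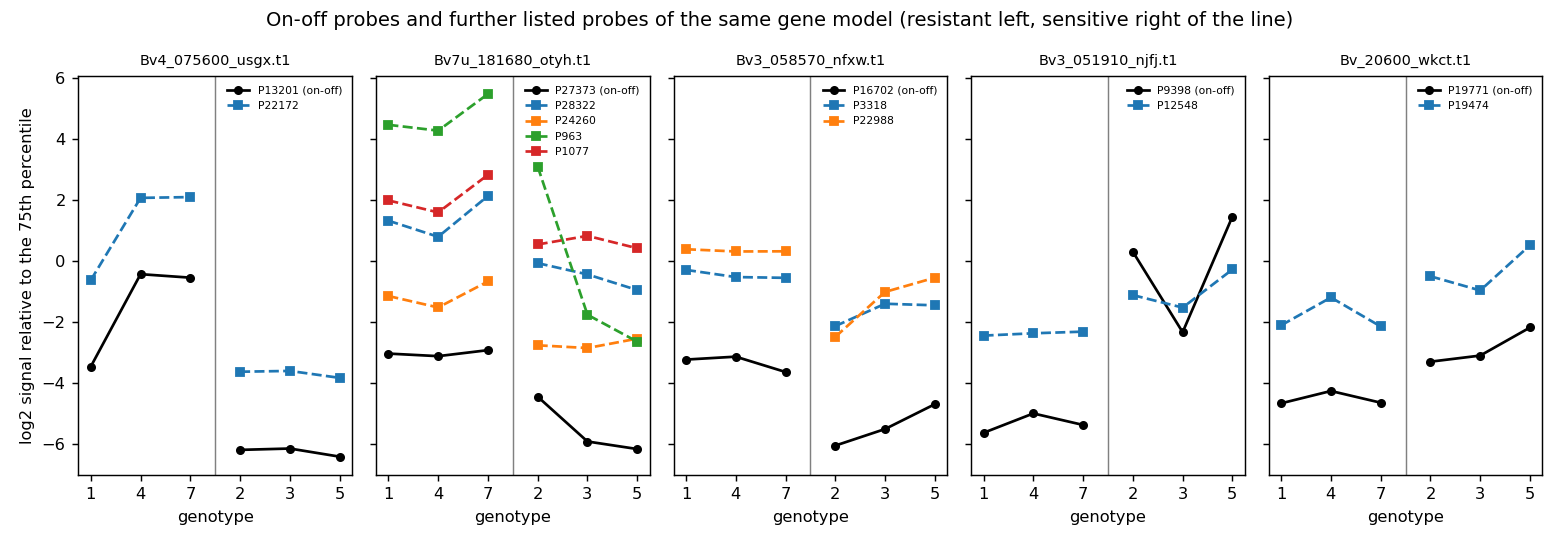
Log2 level relative to the array's 75th percentile in each genotype (resistant 1, 4, 7, left of the line; sensitive 2, 3, 5, right) for the 5 on-off probes (black circles) and the 9 further listed probes of the same gene models (coloured squares). Genotype 1 is the lowest resistant genotype for both P13201 and P22172, and genotype 5 is the highest sensitive genotype for both probes of the tetraspanin and GTP-binding models.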

How the data were processed

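Cy3-labelled RNA of 6 genotypes was read on 8 arrays. The authors deposited 1 scanner file per array, made with Feature Extraction 10.7.3.1, which holds the background-subtracted intensity of each spot on a linear scale, not normalized between arrays, with quality flags. The authors also deposited a log2 table, in which each array had been scaled to its 75th percentile and each probe centred on its median. Of 270 such values for the 45 probes, 100% lay within 0.05 of those computed here from the first arrays of genotypes 3 and 7, which settles the log base, and the log2 table was not used further.

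Here, log2 intensities were scaled by subtracting each array's 75th percentile, taken over its 54252 non-control spots, and then averaged over the spots of a probe and over the arrays of a genotype. The deposited flags were used as written, and 1 probe was left out of the rule and is not reported here. No test between classes was run. The members and lists were chosen with earlier results of these data known. Probes named are those with an accession in the study's list, the 12 with the largest and the 3 with the smallest lower limit in each direction, and listed probes that share a gene model with them; the probes just outside the rule and those without a place under this choice are named for their values.

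Accessions and gene models came from the study's supplementary list, in which product names were read only from its first part, where they sit on the probe's own line. Of 287 identifiers, 0 matched the RefSeq table, so no position or sequence is given. The code for the rule and the limits was run on simulated arrays with a common limit, a fixed difference and small noise. That run checks the code only and not how the rule performs on these arrays. Alternatives were other scalings, normexp background correction with an offset of 50 (limma 3.58.1 in R 4.3.3), other limits, other flag criteria, 1 array of the duplicated genotypes and each genotype left out. Python 3.11.15, numpy 2.4.6, pandas 2.3.3 and matplotlib 3.10.9 were used. Depth does not apply to arrays, and the number of genotypes limits the precision.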

Additional observations from a re-analysis of the deposited data

How the results depend on the processing

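The number of on-off probes depended strongly on how on and off were defined. When genotypes 3 and 7 were each represented by their first array, 63 probes were on in resistant genotypes. When no off array could be positive and significant, 1 probe remained in each direction, and the same held when off signals had to lie at or below the 95th percentile of the negative controls. When well above background was recomputed from the local background pixel SD (2.6 SD), 12 probes were on in resistant, all among the 32, and 28 on in sensitive genotypes, 10 of these among the 13, so that the balance of the directions turned. With on signals above the highest limit of the 8 arrays, 15 were on in resistant genotypes, and with a lower limit of at least 2-fold, 8. The last 2 settings and the negative control criterion were added after the data were seen. Leaving out a genotype gave 60 to 102 probes on in resistant and 29 to 53 on in sensitive genotypes, higher because fewer arrays had to pass.

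The median lower-limit difference with normexp was 0.36 for the probes on in resistant and 0.63 for those on in sensitive genotypes. With the highest signal not well above background as the limit it was 0.20 and 1.19, and 12 of the 32 fell below 0. With no limit it was 1.29 and 3.56. It ranged from 0.33 to 0.63 and from 1.48 to 1.83 when each genotype was left out. With normexp, whose offset of 50 shrinks the folds of faint probes, 5 probes in each direction kept a lower limit of 2-fold or more. Of the 35 probes named by rule, the lower limit moved by more than the SD among on genotypes for 22 with normexp, 18 with the highest signal not well above background as the limit, 3 with median scaling and 0 with quantile normalization. No paired analysis was possible because the replicate numbers only name the genotypes and no test was run. Signal near the limit, and 3 genotypes per class, limit these results, and all arrays share 1 slide and scan day.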
